A study of Mus musculus with 4 samples.

Results

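The widest H3K9me3 peaks of cultured mouse muscle stem cells were chosen by their width in the deposited peak lists, 5000 bp or more between start and end, on chromosomes 1 to 19. They numbered 3246 of the 219552 deposited peaks, 1404 of 113688 in the list from cells given 4-hydroxytamoxifen (TAM) and 1842 of 105864 in the list from cells given ethanol (control). Chromosome 6 is given apart, because it held 41 wide TAM peaks and 356 wide control peaks, which left 1363 wide TAM peaks and 1486 wide control peaks on the other 18 autosomes. H3K9me3 is trimethylation of lysine 9 on histone H3, a mark of silenced chromatin, and was measured by native chromatin immunoprecipitation with micrococcal nuclease and sequencing. The TAM library is labelled Setdb1lox/lox;Pax7GakaCreERT3 and the control library Setdb1lox/lox;Pax7GakaCreERT2. The last digit runs on over the samples, so both were read as the same conditional Setdb1 mouse model. Both groups therefore carried loxP-flanked Setdb1 and a tamoxifen-activated Cre driven from Pax7, a gene of muscle stem cells, and the agent, 4-hydroxytamoxifen or ethanol, was the difference between them. Treatment lasted 72 h, and the study asked what loss of SETDB1 does to the mark. Each condition is represented by a single H3K9me3 library (n = 1), so differences are between these libraries, without a replicate error or a p-value. The number of mice behind each culture was not given in the sources used here.

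SETDB1 is one of the enzymes that trimethylate H3K9. It is brought to DNA by TRIM28, which binds KRAB zinc finger proteins, and in mouse cells it is known for silencing endogenous retroviruses. Long H3K9me3 domains are known to lie over clusters of zinc finger genes, over receptor gene clusters and over long stretches with few genes. A peak caller for broad marks links enriched stretches that lie near each other into 1 peak, so a wide peak stands for a run of enriched stretches without a long break, and its width depends on the linking distance as well as on the mark.

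The sources used here do not state the linking distances, but the shortest gaps differ. The shortest gap between neighbouring peaks was 978 bp in the TAM list and 1045 bp in the control list, and the narrowest peak was 244 bp in the TAM list and 261 bp in the control list. Joining TAM peaks across gaps of up to 1044 bp gives both lists the same shortest gap. It raised the wide TAM peaks on the 18 autosomes to 1690, against 1486 in the control list, which turns a difference of -123 into one of 204. It raised those on chromosome 6 to 66, against 356 in the control list. The direction of the difference in number on the 18 autosomes depended on this joining, and joined values are given below for the clusters and for the numbers of wide peaks, gene families and named genes where joining changes a direction or moves a value by over 1.5 times.

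Few promoters lay whole under a peak of either list, and the promoters under wide peaks had few CG dinucleotides. The RefSeq promoter windows of 300 bases (250 before and 50 after the start, assembly GRCm38.p6) gave 15505 protein-coding genes off chromosome 6. The window lay whole under a wide peak for 40 of them (0.258%) in the TAM list and 41 (0.264%) in the control list, and 11 genes were in both sets. A peak of any width covered the whole window of 218 genes (1.41%) in the TAM list and 201 (1.30%) in the control list. After joining, 51 genes had the window under a wide TAM peak. The windows under wide peaks held a median of 1.5 CG in the TAM set and 1 CG in the control set, against 14 over all 18921 windows. Windows whole under a peak of any width also held a median of 1 CG in each list, so a low CG number went with peaks and not with wide peaks in particular. A CG was present in 67.5% of windows under wide TAM peaks and in 63.4% under wide control peaks, against 95.8% of all windows of the same length. The windows of 6 genes are printed 5′ to 3′ on the strand of their gene with each CG in capitals, because they show what such promoters look like and how the lists differ at them. Zfp981, a zinc finger gene, and Vmn2r16, a pheromone receptor gene, lay under wide peaks of both lists. Olfr891, an odorant receptor gene, and Ctsr, a cathepsin gene of the placental cluster, lay under a wide TAM peak with no control peak over the window. Vmn2r12, a pheromone receptor gene of the same cluster as Vmn2r16, and Tas2r102, a bitter taste receptor gene on chromosome 6, lay under a wide control peak with no TAM peak over the window.
Zfp981: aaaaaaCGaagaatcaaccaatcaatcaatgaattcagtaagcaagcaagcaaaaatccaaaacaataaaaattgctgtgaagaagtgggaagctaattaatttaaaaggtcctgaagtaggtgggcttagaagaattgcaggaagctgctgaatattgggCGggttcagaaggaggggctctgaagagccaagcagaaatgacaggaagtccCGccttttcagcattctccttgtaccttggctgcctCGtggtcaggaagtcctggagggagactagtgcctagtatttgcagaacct
Vmn2r16: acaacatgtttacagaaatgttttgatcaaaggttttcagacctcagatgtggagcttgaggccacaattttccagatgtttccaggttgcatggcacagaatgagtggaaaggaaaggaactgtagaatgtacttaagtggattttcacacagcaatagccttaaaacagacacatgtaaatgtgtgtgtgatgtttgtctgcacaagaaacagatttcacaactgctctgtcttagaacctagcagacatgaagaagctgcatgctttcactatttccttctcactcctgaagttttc
Olfr891: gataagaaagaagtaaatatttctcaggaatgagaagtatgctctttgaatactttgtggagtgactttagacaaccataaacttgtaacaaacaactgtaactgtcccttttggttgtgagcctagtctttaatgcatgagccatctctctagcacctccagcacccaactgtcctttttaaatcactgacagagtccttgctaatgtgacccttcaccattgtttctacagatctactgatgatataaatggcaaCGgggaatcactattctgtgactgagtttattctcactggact
Ctsr: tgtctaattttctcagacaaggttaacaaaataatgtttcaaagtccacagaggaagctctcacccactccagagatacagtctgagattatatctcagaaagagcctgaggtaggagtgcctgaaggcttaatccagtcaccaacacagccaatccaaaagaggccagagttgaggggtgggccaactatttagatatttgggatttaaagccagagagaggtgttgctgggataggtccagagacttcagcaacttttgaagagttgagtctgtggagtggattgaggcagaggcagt
Vmn2r12: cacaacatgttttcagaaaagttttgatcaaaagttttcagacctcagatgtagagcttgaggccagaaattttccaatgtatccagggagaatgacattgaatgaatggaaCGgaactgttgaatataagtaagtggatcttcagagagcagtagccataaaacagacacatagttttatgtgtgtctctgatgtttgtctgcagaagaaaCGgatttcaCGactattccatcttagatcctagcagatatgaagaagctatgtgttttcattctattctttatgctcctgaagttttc
Tas2r102: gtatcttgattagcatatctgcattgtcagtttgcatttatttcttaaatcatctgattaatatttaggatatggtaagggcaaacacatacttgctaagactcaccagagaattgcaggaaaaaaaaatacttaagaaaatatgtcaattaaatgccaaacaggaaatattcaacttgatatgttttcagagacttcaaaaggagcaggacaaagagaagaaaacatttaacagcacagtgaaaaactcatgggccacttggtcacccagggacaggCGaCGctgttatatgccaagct

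The Zfp981 window (chr4:146514670-146514969, plus strand) held 4 CG and lay under peaks of 29.96 kb in the TAM list and 29.30 kb in the control list. The Vmn2r16 window (chr5:109330131-109330430, plus strand) held 0 CG and lay under peaks of 13.1 kb in the TAM list and 10.6 kb in the control list. The Olfr891 window (chr9:38180772-38181071, minus strand) lay under a TAM peak of 8.81 kb that covered the whole gene, and the control list covered 0% of that gene. The Ctsr window (chr13:61164139-61164438, minus strand) lay under a TAM peak of 6.78 kb over the whole gene, of which the control list covered 33.9%. So 1 of these genes had no control peak at all, and the other had control peaks outside the promoter window. The Vmn2r12 window (chr5:109097815-109098114, minus strand) lay under a control peak of 9.36 kb, and peaks covered 19.6% of the gene in the TAM list and 62.7% in the control list. The Tas2r102 window (chr6:132761881-132762180, plus strand) lay under a control peak of 7.18 kb that covered the whole gene, and the TAM list covered 0% of it. Presence or absence of a peak over a window does not say whether the gene was transcribed, which was not measured here.

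Width was the rule, so the following widths are a description. On the 18 autosomes wide peaks were 1.34% of TAM peaks and 1.59% of control peaks, and held 9.83 Mb (TAM) and 10.2 Mb (control), which was 8.08% of the bases under TAM peaks and 8.76% of those under control peaks. After joining, 1690 of 99084 TAM peaks were wide and held 12.2 Mb. The control list was unchanged, with 1486 of 93228 peaks. Joining thus reversed the order of the lists in the share of peaks and in Mb. Their median width was 6157 bp in the TAM list and 6048.5 bp in the control list, against a median over all peaks of 867 bp (TAM) and 899 bp (control). The narrowest members measured 5002 bp (TAM) and 5001 bp (control), and the widest peaks just outside the rule measured 4998 bp in both lists. There were 1002 TAM and 1148 control peaks of 5000 bp to under 7500 bp and 211 TAM and 236 control peaks of 7500 bp to under 10000 bp. At 10000 bp or more the order was the other way, with 150 TAM peaks and 102 control peaks, a ratio of 1.47. With TAM peaks joined as above, the numbers were 180 TAM peaks and 102 control peaks. After joining, TAM peaks were also the more numerous at 5000 bp or more (1690 and 1486) and at 7500 bp or more (436 and 338). The turn in order was thus seen only in the lists as deposited. At 20000 bp or more there were 15 TAM peaks and 11 control peaks. The widest peak measured 34.9 kb in the TAM list and 29.3 kb in the control list.

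**Figure D1:**
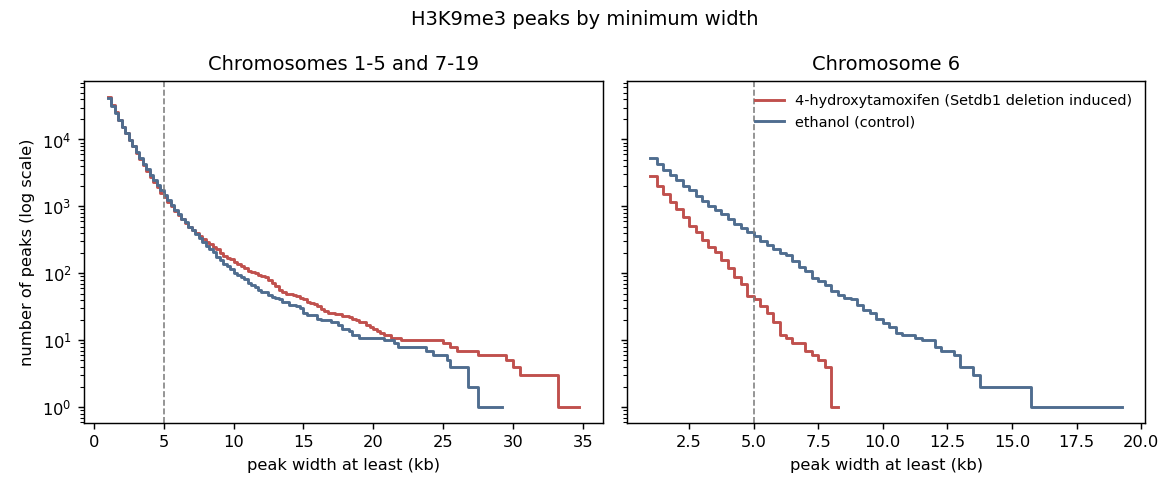
Number of peaks (log scale) at or above each width in kb, for the TAM list (red) and the control list (blue), on the 18 autosomes (left) and on chromosome 6 (right); the dashed line marks 5 kb. The curves cross on the 18 autosomes, with 1363 TAM and 1486 control peaks at 5 kb but 150 TAM and 102 control peaks at 10 kb, and stay apart on chromosome 6. The curves are of peaks as deposited. With TAM peaks joined to the same shortest gap, TAM peaks number 1690 at 5 kb and 180 at 10 kb, above the control list at both.

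Within each list, wide peaks carried somewhat higher scores than narrower ones. Fold enrichment and q are the authors' values and are read within a list only. The median fold of wide TAM peaks was 2.75, against 2.59 for narrower TAM peaks, and that of wide control peaks was 2.68, against 2.56 for narrower control peaks. The −log10 q reached 2 in 36.4% of wide TAM peaks and 11.5% of narrower ones, and in 39.8% of wide control peaks and 18.3% of narrower ones. Fold differed little between the width classes while q differed more. A wide peak that overlapped a wide peak of the other list had a −log10 q of 2 or more in 70.7% of cases in the TAM list and 75.6% in the control list. Where the other list held narrow peaks in its place, the share was 24.1% in the TAM list and 27.5% in the control list.

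Wide peaks were unevenly placed along the genome. Chromosomes 4, 17, 7 and 13 held 163, 130, 125 and 113 wide TAM peaks, against 160, 142, 120 and 95 wide control peaks. Chromosome 14 held 0 wide TAM peaks and 1 wide control peak, among 568 TAM and 654 control peaks in all. On the other 17 chromosomes, wide peaks made up 0.573% to 2.52% of TAM peaks and 0.714% to 2.93% of control peaks. Of these 17 chromosomes, 6 had more wide peaks in the TAM list and 11 fewer, and after joining 9 had more, 7 fewer and 1 the same number. Chromosome 10 had the highest ratio, with 81 wide TAM peaks and 48 wide control peaks (1.69), and chromosome 8 the lowest, with 58 wide TAM peaks and 88 wide control peaks (0.659). After joining, chromosome 10 had 94 wide TAM peaks against 48 wide control peaks and chromosome 8 had 74 wide TAM peaks against 88 wide control peaks, so these differences kept their direction. That of chromosome 17 was reversed, with 152 wide TAM peaks after joining against 142 wide control peaks. The first 10 Mb of the chromosomes held 4.84% of wide TAM peaks and 3.97% of wide control peaks, close to the 4.86% (TAM) and 5.04% (control) of all peaks there.

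**Figure D2:**
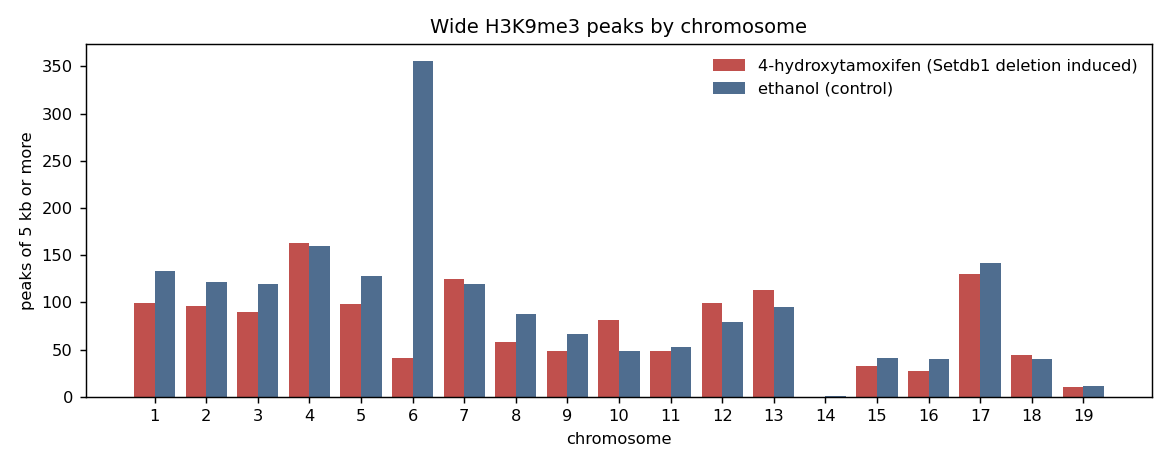
Number of peaks of 5 kb or more on each autosome, with TAM bars (red) left of control bars (blue). Chromosome 6 stands apart with 41 TAM and 356 control peaks, and chromosomes 10, 12 and 13 have more TAM peaks than control peaks.

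Wide peaks clustered. The median distance from a wide peak to the nearest wide peak of the same list was 68.5 kb in the TAM list and 69.3 kb in the control list. Grouping the wide peaks of both lists across gaps of up to 500 kb gave 534 clusters, and the 79 clusters of 10 or more wide peaks held 58.2% of wide TAM peaks and 61.5% of wide control peaks. The 79 were picked by their number of wide peaks, a choice that favours high shares. Distances and shares of all peaks were not taken, so grouping particular to wide peaks was not tested. The richest cluster, chr4:145404291-147832948 (mm10), contained 53 wide TAM peaks and 49 wide control peaks, and 16 of its 19 protein-coding genes were Zfp zinc finger genes. Peaks of any width covered 33.6% of it in the TAM list and 29.9% in the control list. A cluster at chr13:61066937-62778573, with placental cathepsin and Zfp genes, held 38 wide TAM peaks totalling 305 kb and 24 wide control peaks totalling 174 kb. Peaks of any width covered 39.9% of that cluster in the TAM list and 31.3% in the control list. A cluster over the Skint genes, which encode immunoglobulin-family membrane proteins of skin and thymus, at chr4:111964029-114243903 held 27 wide TAM peaks and 33 wide control peaks. The vomeronasal receptor cluster at chr17:17972191-21031141 held 27 wide TAM peaks and 28 wide control peaks. At an odorant receptor cluster on chromosome 2 (chr2:87812608-90116715, 97 Olfr genes) the numbers were 15 wide TAM peaks and 26 wide control peaks, and the covered shares were 27.6% in the TAM list and 32.8% in the control list. Of the 12 clusters with the most wide peaks of both lists, 6 had more in the TAM list, 5 had fewer and 1 had equal numbers, and after joining 8 had more, 3 had fewer and 1 had equal numbers. Another odorant receptor cluster, chr17:37416387-40551973 with 32 Olfr genes, held 24 wide TAM peaks and 23 wide control peaks, and a cluster with 11 Zfp genes, chr17:21817500-23420343, held 21 of each list. After joining, the Zfp cluster on chromosome 4 held 55 wide TAM peaks, the cathepsin and Zfp cluster 40, the Skint cluster 31, the vomeronasal receptor cluster 31, which is above its 28 wide control peaks, and the odorant receptor cluster of chromosome 2 held 17. The cluster with 11 Zfp genes then held 22 wide TAM peaks, against 21 wide control peaks.

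Wide peaks were covered by the other list more often than the average peak, and about 1 in 2 were covered over most of their length. On the 18 autosomes, 744 of 1363 wide TAM peaks (54.6%, 95% Wilson interval 51.9% to 57.2%) had at least 50% of their bases under control peaks, against 31.1% of all TAM peaks. Conversely 748 of 1486 wide control peaks (50.3%, 47.8% to 52.9%) had at least 50% of their bases under TAM peaks, against 33.3% of all control peaks. Intervals cover counting error only, and neighbouring peaks are not independent. The median covered share was 53.7% for wide TAM peaks and 50.2% for wide control peaks, and joining changed these to 49.4% (TAM) and 51.7% (control). Coverage went with width. At least 50% of the bases were covered for 48.1% of TAM and 45.5% of control peaks of 5000 bp to under 7500 bp, for 62.1% of TAM and 58.9% of control peaks of 7500 bp to under 10000 bp, and for 87.3% of TAM and 85.3% of control peaks of 10000 bp or more. Among peaks of 2500 bp to under 5000 bp the shares were 39.2% in the TAM list and 39.8% in the control list.

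In the lists as deposited, splitting into narrow peaks of the other list was the most frequent state of a wide peak. Of the wide TAM peaks, 399 (29.3%) overlapped at least 1 wide control peak, 586 (43.0%) overlapped 2 or more narrow control peaks and no wide one, 347 (25.5%) overlapped 1 narrow control peak, and 31 (2.27%) overlapped none. Of the wide control peaks, 401 (27.0%) overlapped a wide TAM peak, 666 (44.8%) were split into 2 or more narrow TAM peaks, 372 (25.03%) overlapped 1 narrow TAM peak, and 47 (3.16%) overlapped none. After joining, the split share was 44.0% for wide TAM peaks and 41.4% for wide control peaks. The split share depended on the peaks taken: at 10000 bp or more, with narrow meaning below that width, it was 56.7% for TAM peaks and 35.3% for control peaks, and with peaks of a −log10 q of 2 or more alone in both lists it was 5.04% for TAM and 1.69% for control peaks. Over all peaks, the split share was 2.34% in the TAM list and 3.14% in the control list, the share over a wide peak of the other list 2.35% (TAM) and 2.44% (control), and the share with no partner 49.6% (TAM) and 45.7% (control). A longer interval can meet more peaks by its length alone, and among peaks of 2500 bp to under 5000 bp the split share was 16.0% in the TAM list and 19.6% in the control list.

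**Figure D3:**
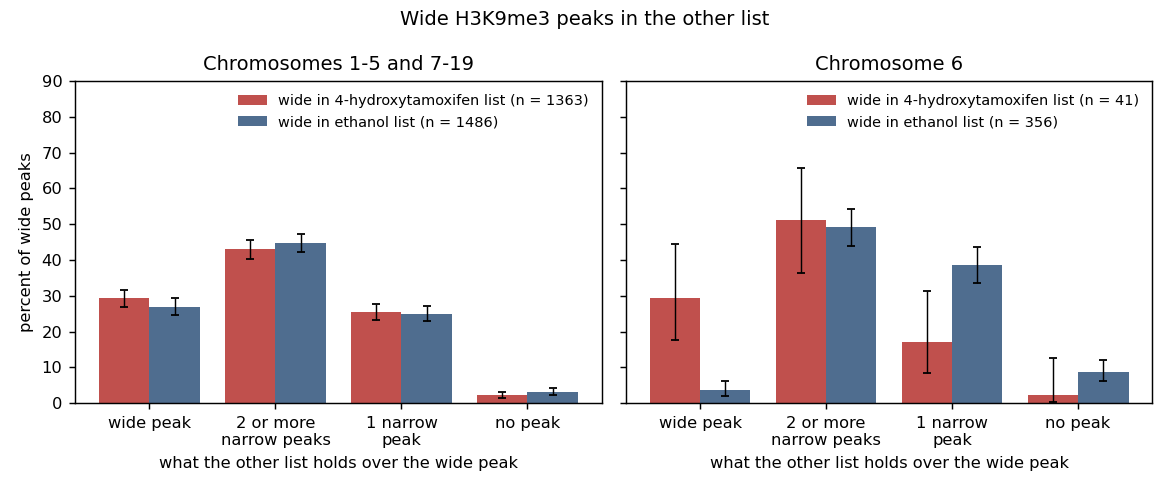
Percent of wide peaks of the TAM list (red) and of the control list (blue) by what the other list holds over them, on the 18 autosomes (left) and chromosome 6 (right); error bars are 95% Wilson intervals for counting error. The 4 classes have similar shares in both lists on the 18 autosomes, whereas on chromosome 6 a wide partner was found for 12 of 41 wide TAM peaks and 13 of 356 wide control peaks.

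Split peaks were mostly in 2 pieces. Of the 586 split TAM peaks, 449 met 2 control peaks, 123 met 3 and 14 met 4, and of the 666 split control peaks, 523 met 2 TAM peaks, 127 met 3 and 16 met 4. The median piece measured 1606.5 bp where control peaks lay in TAM peaks and 1449.25 bp where TAM peaks lay in control peaks. The pieces covered a median of 46.1% of a split TAM peak and 44.1% of a split control peak. The largest gap between pieces had a median of 1689 bp within split TAM peaks and 1728.5 bp within split control peaks. Of the split TAM peaks, 0 had a largest gap of 1000 bp or less, and of the split control peaks, 12 (1.80%). The 0 was fixed in advance by the shortest gap of 1045 bp in the control list. For split control peaks, only gaps of 978 to 1000 bp could count. A split of a control peak at a gap of 978 to 1044 bp can come from the difference in shortest gap alone, and joining at that distance left 615 of the 666 split control peaks.

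The largest wide peaks were shared. The 399 TAM and 401 control peaks with a wide partner formed 417 overlapping pairs, in which the TAM peak was the wider in 245, the control peak in 171 and neither in 1. Both edges lay within 500 bp of each other in 53 pairs. The closest large match was chr4:146475707-146503035 in the TAM list (27329 bp) and chr4:146475691-146503014 in the control list (27324 bp), with starts 16 bp and ends 21 bp apart, and it overlaps Zfp981. Another match, on chromosome 13 (chr13:12819060-12844486 in the TAM list and chr13:12818999-12844346 in the control list), measured 25427 bp (TAM) and 25348 bp (control) and lay 18.9 kb from Prl2c3, a gene of the prolactin family. A peak at chr9:3000039-3009956, near the start of the assembled chromosome 9, had identical edges in both lists. The widest TAM peak, chr7:43146133-43181051 (34.9 kb), overlaps Zfp936 and was 93.8% covered by 2 wide control peaks of 25060 bp and 8591 bp separated by 1532 bp. The next widest, chr17:21975179-22008305 (33.1 kb) at Zfp943, was 88.1% covered by 4 control peaks, 3 of them wide. In both, control peaks lay over nearly the same span with short gaps between them.

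Other wide peaks had no counterpart. The widest control peak with no TAM peak over it was chr5:85027063-85040827 (13.8 kb), 609 kb from Epha5, the nearest protein-coding gene, which encodes an ephrin receptor. Of the 102 control peaks of 10000 bp or more on the 18 autosomes, it alone had no TAM peak, and 0 of 150 TAM peaks of that width lacked a control peak. The widest TAM peak with no control peak was chr15:17278572-17286607 (8.04 kb), 421 kb from Cdh9, a type II cadherin gene. Their −log10 q was 1.93 for the control peak and 1.72 for the TAM peak. The medians of wide peaks were 1.90 in the control list and 1.82 in the TAM list. The most divided member was a TAM peak on chromosome 3, chr3:106165665-106195002 (29.3 kb), which reaches into Chil3, a chitinase-like gene. It met 6 control peaks, 2 of them wide, that covered 68.3% of it. Next to it, a control peak of 15.9 kb over Chil4, chr3:106199422-106215300, met 4 TAM peaks, 1 of them wide, that covered 57.3% of it. At this locus, peaks of each list were divided in the other.

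**Figure D4:**
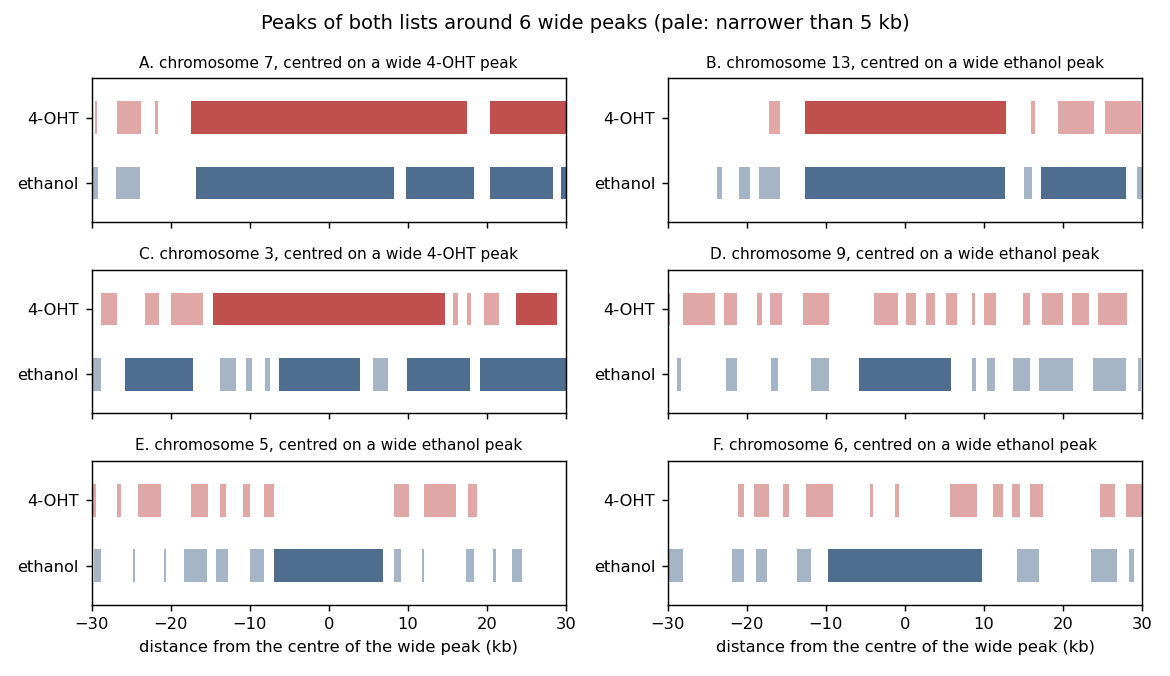
Peaks of the TAM list (4-OHT, red) above those of the control list (ethanol, blue) within 30 kb of the centre of 6 wide peaks; peaks narrower than 5 kb are pale. A and B centre on the widest TAM peak and on a wide control peak matched within 140 bp at both edges, C and D on the TAM and control peaks met by 6 and 4 peaks of the other list, E on the widest control peak without a TAM peak, and F on the widest control peak of chromosome 6, met by 4 narrow TAM peaks.

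Most wide peaks, like most peaks of either list, lay outside protein-coding genes. By midpoint, 347 wide TAM peaks (25.5%, 23.2% to 27.8%) and 330 wide control peaks (22.2%, 20.2% to 24.4%) on the 18 autosomes lay in a protein-coding gene, against 21.9% of all TAM peaks and 21.2% of all control peaks. Another 55.5% of wide TAM peaks and 59.5% of wide control peaks lay over 5 kb from any gene, against 60.4% of all TAM peaks and 61.5% of all control peaks. Among peaks of 10000 bp or more, 52.0% lay in a protein-coding gene in each list. A wide peak touched 306 protein-coding genes (1.57% of 19539) in the TAM list and 309 (1.58%) in the control list, and 188 genes were in both sets. After joining, 350 genes (1.79%) had a wide TAM peak, which is above the 309 of the control list, so the direction of this small difference depended on joining. In the 118 genes with a wide TAM peak alone, peaks of any width covered a median of 29.4% of the gene in the TAM list and 16.7% in the control list, and 9 of these genes had no control peak. In the 121 genes with a wide control peak alone, the medians were 18.6% in the TAM list and 34.9% in the control list, and 13 had no TAM peak. Most genes with a wide peak in 1 list alone thus still had narrower peaks in the other. The choice of these genes by a wide peak in 1 list alone favours higher coverage in that list. The share of all genes with a peak of any width was not taken.

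Of 371 Zfp genes on the 18 autosomes, which encode mostly DNA-binding C2H2 proteins, 84 (22.6%) had a wide TAM peak and 73 (19.7%) a wide control peak, 69 of them in both lists, beside the 1.57% (TAM) and 1.58% (control) of all protein-coding genes. Gene bases under wide peaks in this family, summed gene by gene, came to 1044 kb in the TAM list and 813 kb in the control list. Bases in overlapping gene spans, such as those of Zfp981 and Zfp993, count once for each gene. Within 50 kb of a Zfp gene lay 14.2% of wide TAM peaks and 10.8% of wide control peaks, against 1.62% (TAM) and 1.65% (control) of all peaks, and at 10000 bp or more the shares were 41.3% (62 of 150) in the TAM list and 44.1% (45 of 102) in the control list. Zfp978 had the most, with 85.7 kb under 9 wide TAM peaks and 71.8 kb under 8 wide control peaks. Zfp982 had 50.3 kb in the TAM list and 44.1 kb in the control list, and Zfp936 had 50.9 kb (TAM) and 41.6 kb (control). Zfp985 had 25.9 kb in the TAM list and 21.9 kb in the control list. In all 4, peaks of any width also covered more of the gene in the TAM list: 43.3% of Zfp978 in the TAM list and 38.6% in the control list, and 85.3% of Zfp985 in the TAM list and 77.3% in the control list. Zfp981 was alike in both lists, with 28.3 kb in the TAM list and 28.2 kb in the control list. Zfp993, whose annotated span of 479 kb overlaps that of Zfp981 and shares its widest peak, had 58.3 kb (TAM) and 53.2 kb (control).

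Receptor families of the nose had fewer members under wide TAM peaks than under wide control peaks at 5000 bp. The shares over all protein-coding genes were 1.57% (TAM) and 1.58% (control), so the odorant receptor share in the TAM list was that of genes at large. Of 1076 odorant receptor genes, 17 (1.58%) had a wide TAM peak and 31 (2.88%) a wide control peak, and 1 was in both sets. After joining, 19 had a wide TAM peak. Olfr1258 had 5.15 kb in the TAM list and 5.40 kb in the control list. Of 294 vomeronasal receptor genes, 14 (4.76%) had a wide TAM peak and 22 (7.48%) a wide control peak, with 6 in both, and after joining 17 had a wide TAM peak. At a minimum width of 7500 bp, 6 vomeronasal receptor genes had a wide peak in each list, and the odorant receptor genes numbered 3 in the TAM list and 7 in the control list. Summed gene by gene, bases of odorant receptor genes under wide peaks were alike, 35.2 kb in the TAM list and 34.6 kb in the control list. For vomeronasal receptor genes the sums were 87.6 kb (TAM) and 138 kb (control). Vmn2r94 had 15.3 kb in the TAM list and 14.7 kb in the control list. These genes are short, so that a peak edge moved by a few kb takes a whole gene in or out.

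Other families were smaller or split between the lists, and each count is to be read beside the 1.57% (TAM) and 1.58% (control) of all protein-coding genes, at which a family of these sizes holds few such genes or none. Of 57 clustered protocadherin genes, which encode neuronal adhesion molecules and share long stretches of their annotated spans, 13 had a wide TAM peak and 7 a wide control peak, with 0 in both. After joining, 20 of these genes had a wide TAM peak and 7 had a wide peak in both lists. Of 42 genes for UDP-glucuronosyltransferases and sulfotransferases, which conjugate hormones, bile compounds and drugs, 13 had a wide TAM peak (15 after joining) and 10 a wide control peak, with 8 in both. Ugt2b5 had 0 kb in the TAM list and 9.50 kb in the control list, although peaks of any width covered 56.5% of it in the TAM list and 61.7% in the control list. Of 38 glutamate and GABA receptor genes, 3 had a wide TAM peak (5 after joining) and 2 a wide control peak, and Cdh8, 1 of 12 type II cadherin genes, had 10.96 kb in the TAM list and 17.62 kb in the control list. Of 9 contactin and contactin-associated genes on these chromosomes, 2 had a wide TAM peak and 3 a wide control peak, with 2 in both. After joining, 4 of the 9 had a wide TAM peak, above the 3 of the control list. A single gene had a wide TAM peak and none a wide control peak among 71 defensins (Defb1, 4.16 kb) and 62 serpins (Serpina3j, 5.53 kb). Of 98 cytochrome P450 genes, 0 had a wide TAM peak and 2 a wide control peak, among them Cyp2c39 with 5.04 kb, and after joining the number was 2 in each list. Among 23 cathepsins, Ctsr had 4.97 kb in the TAM list and 0 kb in the control list, and Cts3 had 0 kb in the TAM list and 3.28 kb in the control list, with 2 cathepsin genes under wide TAM peaks after joining. Of 49 Oog and Pramel genes, a family expressed in germ cells, 2 had a wide TAM peak (3 after joining) and 1 a wide control peak. Oog2 had 5.97 kb (TAM) and 0 kb (control), and Pramel24 had 0 kb (TAM) and 0.7 kb (control). None of 25 prolactin-family genes, 112 keratin genes, 38 H2 genes of the histocompatibility complex, 18 myogenic factors and 14 genes of the H3K9 methylation machinery had a wide peak in either list on these chromosomes, which at the shares of all genes says little of any one family.

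In single long genes, wide peaks differed between the lists in both directions. Mgat4c, a glycosyltransferase gene, had 25.1 kb under 4 wide TAM peaks and 6.24 kb under 1 wide control peak, while peaks of any width covered 31.1% of it in the TAM list and 30.3% in the control list. Agbl4, which encodes a tubulin-trimming carboxypeptidase, had 32.5 kb in the TAM list (44.5 kb after joining) and 14.5 kb in the control list, and covered shares of 24.2% (TAM) and 19.6% (control). Cntn5, a contactin gene, had 24.6 kb (TAM) and 12.9 kb (control), and covered shares of 21.7% (TAM) and 21.1% (control). The opposite was seen at Lrp1b, which encodes a lipoprotein receptor, with 16.8 kb under 3 wide TAM peaks and 49.4 kb under 9 wide control peaks and covered shares of 21.9% in the TAM list and 23.9% in the control list. Sgcz, which encodes zeta-sarcoglycan of the muscle membrane complex, had 5.02 kb in the TAM list (16.8 kb after joining) and 35.9 kb in the control list, with covered shares of 22.8% (TAM) and 25.2% (control). Fstl5, a follistatin-like gene, had 8.35 kb in the TAM list and 34.8 kb in the control list, with covered shares of 29.9% (TAM) and 37.6% (control). These 6 genes were chosen for their bases under wide peaks in one list, so that difference is a description that the choice favours. Within the Skint cluster, neighbours went opposite ways: Skint5 had 61.4 kb in the TAM list (82.1 kb after joining) and 51.7 kb in the control list, and Skint6 had 11.03 kb (TAM) and 63.62 kb (control).

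**Figure D5:**
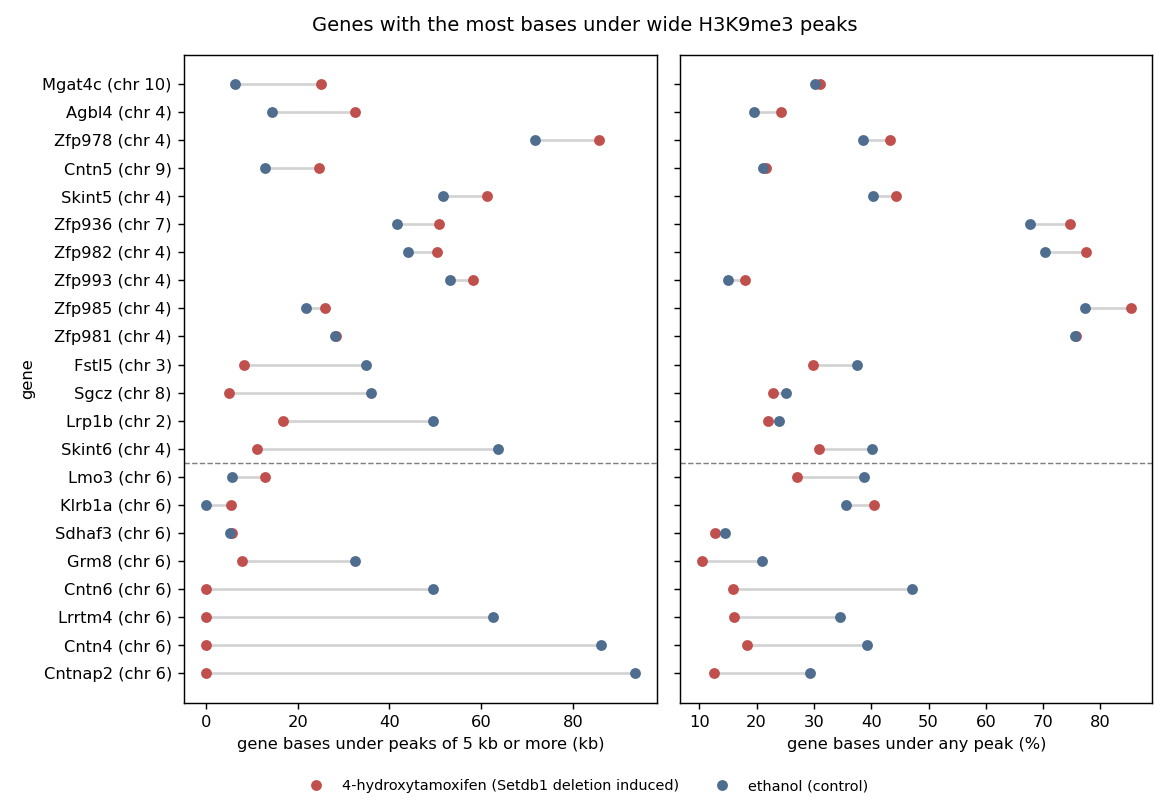
Gene bases under peaks of 5 kb or more (left, kb) and under peaks of any width (right, percent of the gene; this axis does not start at 0) in the TAM list (red) and the control list (blue), for the genes with the most bases under wide peaks; genes below the dashed line are on chromosome 6. Mgat4c and Lrp1b differ widely on the left and little on the right. Cntnap2, Cntn4, Lrrtm4 and Cntn6 are lower in the TAM list on both, and so are Fstl5 and Skint6 off chromosome 6.

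The genes that check the experiment had no wide peak. Setdb1 (chr3:95323525-95357202) had 0% of its bases under TAM peaks and 1.15% under control peaks, and such coverage says nothing on recombination of the loxP sites. Pax7, Myod1 and Myog, which mark muscle stem cells and their differentiation, had no peak in either list. Of 16 marker genes of muscle stem, endothelial, immune and fibro-adipogenic cells, 0 had a wide peak, and Adgre1, a macrophage gene, alone had any peak, with 17.6% of its bases covered in the TAM list and 20.4% in the control list. A mark of silenced chromatin does not tell which cells were present, and their part in the results was not tested.

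Chromosome 6 had far fewer wide TAM peaks than wide control peaks. It held 41 wide TAM peaks (0.568% of 7220) and 356 wide control peaks (3.55% of 10030), a ratio of 0.115, against 0.659 to 1.69 on the 17 chromosomes above. Wide peaks spanned 0.245 Mb in the TAM list and 2.39 Mb in the control list. Joining TAM peaks to the same shortest gap gave a ratio of 0.185. The widest peak measured 8.42 kb in the TAM list and 19.4 kb in the control list, and 0 TAM peaks and 18 control peaks reached 10000 bp. The median distance from a wide peak to the nearest wide peak of the same list was 617 kb in the TAM list and 30.5 kb in the control list, so the control peaks were dense along the chromosome. The input libraries and read depth were not analysed here, so a difference in the copies of the chromosome and a difference in the mark cannot be told apart.

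Most wide control peaks of chromosome 6 met narrow TAM peaks alone, and TAM peaks covered 30.9% of the bases of wide control peaks there. Of 356, 175 (49.2%) were split into 2 or more narrow TAM peaks, 137 (38.5%) met 1 narrow TAM peak, 31 (8.71%) met none and 13 (3.65%) met a wide one. Over all control peaks of the chromosome the split share was 4.34%, the share with no TAM peak 55.3% and the share over a wide TAM peak 0.718%. At least 50% of the bases were covered in 63 of the 356 (17.7%, 14.1% to 22.0%), close to the 20.6% of all control peaks there, and the median covered share was 27.0%. The 41 wide TAM peaks were found with 12 over a wide control peak, 21 split, 7 over 1 narrow control peak and 1 alone, and 29 of them (70.7%, 55.5% to 82.4%) were at least 50% covered, with a median of 64.9%. Over all TAM peaks of the chromosome, 48.4% were at least 50% covered, 2.08% were split, 33.3% had no control peak and 7.73% lay over a wide one. On this chromosome, then, wide TAM peaks were well covered by control peaks and wide control peaks were poorly covered by TAM peaks. Of the 18 control peaks of 10000 bp or more, 15 were split and 3 met 1 narrow TAM peak.

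The widest control peak of the chromosome, chr6:131872537-131891981 (19.4 kb), lay over 5 kb from any gene and 182 kb from Tas2r114, a bitter taste receptor gene. It met 4 TAM peaks of 279 to 3390 bp that covered 24.3% of it, with a gap of 6450 bp between them. Another, chr6:121719655-121735156 (15.5 kb), lay 40.4 kb from A2m, which encodes the protease inhibitor alpha-2-macroglobulin, and met 3 TAM peaks of 360 to 1418 bp covering 19.8% of it. The widest TAM peak of the chromosome, chr6:131778565-131786980 (8.42 kb), met 2 wide control peaks and 1 narrow one that covered 67.7% of it. The 1 wide TAM peak without a control peak, chr6:121838348-121843950 (5.60 kb), lay in Mug1, a murinoglobulin gene that itself had 5.46 kb under wide peaks in the TAM list and 13.0 kb in the control list.

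Genes under wide peaks of chromosome 6 numbered 10 (0.888% of 1126 protein-coding genes) in the TAM list and 44 (3.91%) in the control list, with 8 in both, and after joining 12 in the TAM list. The 4 contactin-family genes of the chromosome, which encode neuronal adhesion molecules, were all under wide control peaks. Cntnap2 had 0 kb in the TAM list and 93.5 kb under 14 wide peaks in the control list, and peaks of any width covered 12.5% of it in the TAM list and 29.3% in the control list. Cntn4 had 0 kb (TAM) and 86.1 kb (control), with covered shares of 18.4% in the TAM list and 39.3% in the control list. Cntn6 had 0 kb (TAM) and 49.4 kb (control), with covered shares of 15.8% (TAM) and 47.1% (control). Cntn3 had 5.23 kb in the TAM list and 26.2 kb in the control list, with covered shares of 20.8% (TAM) and 41.0% (control). Lrrtm4, a synaptic adhesion gene, had 0 kb in the TAM list and 62.6 kb in the control list, and Grm8, a glutamate receptor gene, had 7.90 kb (TAM) and 32.4 kb (control). The covered shares of these genes were lower in the TAM list too. Lower coverage was not particular to these genes. Peaks of any width spanned 7.73 Mb of chromosome 6 in the TAM list and 15.3 Mb in the control list. On the 18 autosomes they spanned 122 Mb (TAM) and 116 Mb (control). Off chromosome 6 the covered shares were close at Lrp1b and Sgcz. The covered shares were lower in the TAM list at Fstl5 (29.9% TAM, 37.6% control) and Skint6 (30.9% TAM, 40.1% control). Cntnap2, Cntn4, Cntn6 and Lrrtm4 were chosen for their bases under wide control peaks, a choice that favours this direction. After joining, Cntn4 and Lrrtm4 each had 1 wide TAM peak, of 5.37 kb and 5.30 kb.

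The stretch chr6:101689486-106532729, with Cntn3, Chl1, Cntn6 and Cntn4, held 4 wide TAM peaks (8 after joining) and 65 wide control peaks, and 19.1% of it lay under TAM peaks and 39.4% under control peaks. The stretch chr6:129733502-133780089, with lectin-like receptor genes of natural killer cells and bitter taste receptor genes, held 6 wide TAM peaks (10 after joining) and 63 wide control peaks, with covered shares of 18.2% (TAM) and 36.2% (control). Of 29 lectin-like receptor genes, 1 had a wide TAM peak (Klrb1a, 5.55 kb, against 0 kb in the control list) and 6 a wide control peak. Klra6 had 36.4% of its bases under TAM peaks and 75.5% under control peaks, and Klri2 had 5.12% (TAM) and 73.5% (control). Of 33 bitter taste receptor genes, 0 had a wide TAM peak and 5 a wide control peak. Tas2r102 went uncovered in the TAM list, whereas Tas2r130 was covered whole in both lists, by narrower peaks in the TAM list and a wide one in the control list. Of 60 vomeronasal receptor genes, 0 had a wide TAM peak and 7 a wide control peak. Lmo3, a LIM-domain gene, went the other way by wide peaks, with 13.0 kb in the TAM list and 5.74 kb in the control list, but peaks of any width covered 27.0% of it in the TAM list and 38.8% in the control list. Sdhaf3, an assembly factor of succinate dehydrogenase, had 5.68 kb (TAM) and 5.22 kb (control).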

How the data were processed

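H3K9me3 peak lists of 1 TAM and 1 control library were analysed. The 2 input libraries were not used here. The submitters' processing notes name BWA 0.7.17-r1188, MACS2, ChIPseeker 1.30.3 and mm10, and the peak caller's version and settings are not given in the sources used here. Deposited with each peak are a score, a linear fold enrichment ratio, a −log10 p-value and a −log10 q-value from the authors' peak calling. Fold and q were used within a list only. Read depth is unknown. Lists were assigned by condition, because the replicate number in the peak names differs from the labels'. Peaks were compared at an overlap of 1 bp or more in Python 3.11.15 (matplotlib 3.10.9, scipy 1.17.1, numpy 2.4.6, pandas 2.3.3), with code tested on simulated data. A peak under 5000 bp was called narrow. Genes came from a RefSeq table of GRCm38.p6, whose coordinates are those of mm10. Shares carry 95% Wilson intervals (counting error only).

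The members, gene families and tests were chosen with earlier results of these data known. Named regions were the widest, least covered and most divided peaks of each list, and named genes those with the most bases under wide peaks, those of the named regions, the leading member of each family, and Setdb1, Pax7, Myod1 and Myog. Predicted genes (Gm, Rik and LOC symbols) were skipped where genes were ranked. Alternatives were other minimum widths, a −log10 q of 2, equal list sizes, chromosome 6 included, joined peaks and other overlap rules, and joining to the same shortest gap was added after seeing the data.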

Additional observations from a re-analysis of the deposited data

Results flagged for a closer look

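Chromosomes X and Y and the unplaced scaffolds lie outside the comparisons above. They held 32 peaks of 5000 bp or more in the TAM list and 21 in the control list. Chromosome X had 14 in the TAM list and 5 in the control list, the widest 11.2 kb (TAM) and 7.94 kb (control). Chromosome Y had 0 in the TAM list and 1 in the control list, and the scaffolds had 18 in the TAM list and 15 in the control list. The signal was set apart for a closer look because it appears in data not used above. Its cause was not tested, and no interval or replicate bears on the difference.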

How the results depend on the processing

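With 1 library per group, leaving out a replicate was not possible. No paired analysis was possible because each condition had 1 H3K9me3 library. Depth is unknown and limits every value. Of 199 alternative values, 118 stayed within their interval or within 1.5 times the main count, 78 moved further and 3 turned the direction. Some of the 118 could not move, so their number does not measure stability. Joining at up to 1044 bp cannot change the control list, whose shortest gap is 1045 bp. Equal list sizes left TAM values as they were, because the TAM list had fewer wide peaks and the control list fewer peaks in all. The 3 that turned were the TAM minus control number of wide peaks on the 18 autosomes, which became 23 at 7500 bp, 48 at 10000 bp and 204 after joining TAM peaks to the same shortest gap. It was -20 after joining each list across gaps of up to 1000 bp, and -438 with chromosome 6.

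At 4000, 7500 and 10000 bp, with narrow meaning below that width, the TAM list had 2770, 361 and 150 wide peaks and the control list 2938, 338 and 102. At least 50% covered were 47.9%, 72.6% and 87.3% in the TAM list and 46.0%, 66.9% and 85.3% in the control list. Split were 32.9%, 54.8% and 56.7% in the TAM list and 36.7%, 48.8% and 35.3% in the control list. Inside protein-coding genes were 22.0%, 39.6% and 52.0% in the TAM list, and 35.5% and 52.0% in the control list at 7500 and 10000 bp. At a −log10 q of 2 or more in both lists, 496 TAM and 592 control peaks were wide, 63.7% of the TAM peaks were at least 50% covered, 5.04% of TAM and 1.69% of control peaks were split, and 38.5% of TAM and 30.9% of control peaks lay in genes.

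With chromosome 6, 44.0% of control peaks were at least 50% covered. At 80% of bases covered, the shares were 19.7% in the TAM list and 21.7% in the control list. With 3 or more narrow peaks, 10.1% of TAM and 9.62% of control peaks were split, and with at least 50% of each narrow peak inside, 35.2% of TAM and 35.8% of control peaks. By any base, 28.0% of TAM and 25.7% of control peaks touched genes. After joining to the same shortest gap, 49.2% of TAM peaks were at least 50% covered and 41.4% of control peaks were split. At 7500 bp, a wide peak touched 146 protein-coding genes in the TAM list and 128 in the control list. Of 114 counts of family members, 33 moved by over 1.5 times: 9 up with 5 kb added around genes, 19 down at 7500 bp and 5 up after joining.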
